A study of Mus musculus with 6 samples.

Results

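The genes described here are 9 members of the transforming growth factor beta (TGF-beta) pathway and the thrombospondins linked to it: the ligand Tgfb1, the receptors Tgfbr1 and Tgfbr2, the signal carrier Smad3, the inhibitor Smad7, and the secreted proteins Tgfbi, Ctgf, Thbs1 and Thbs2. They were chosen by symbol, and all 9 were found among the 57180 mouse gene IDs of the deposited count table (Ctgf is listed as Ccn2 in the annotation). RNA was sequenced from adipose tissue macrophages, selected on the surface proteins F4/80 and CD11b, of wild-type (WT) mice. There were 3 libraries from mice on a high-fat diet (HFD) that also received MGIG, magnesium isoglycyrrhizinate, a salt of an isomer of the licorice compound glycyrrhizic acid, and 3 from mice on HFD without it. Both groups share the diet, and no group on another diet is described in the labels. The labels name white adipose tissue as the source and state no dose, duration, sex, age or fat depot. Nor do they tie a library to an animal of its own, so p-values here reflect differences between libraries that could be purely technical.

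TGF-beta1 is secreted in a latent form, held in a complex with its own propeptide until integrins, proteases or thrombospondin-1 release it. The active ligand binds the type II receptor, which switches on the type I receptor, which in turn phosphorylates SMAD2 and SMAD3; these pair with SMAD4 and enter the nucleus. SMAD7, itself a target of the pathway, blocks the receptors. In obese adipose tissue macrophages are a known source of TGF-beta1, and stromal and vascular cells answer it with matrix proteins such as CTGF and collagen.

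The promoters of 6 of the 9 members were in the RefSeq table (build GRCm38.p6), in 7 windows of 250 bases before a start site. Ctgf, Smad7 and Thbs1 had no entry. The short site that SMAD proteins bind, CAGAC, or GTCTG on the other strand, stood in 4 of the 7 windows, beside 42.2% of all 32851 windows of that length. The 3 printed here carry it upstream of the annotated gene and belong to members whose values differ in kind below: a receptor, a matrix response gene and a thrombospondin. Each is read 5′ to 3′ on the strand of its gene, with the CAGAC sites (either strand) in capitals.

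Tgfbr2, chr9:116175364-116175613, minus strand: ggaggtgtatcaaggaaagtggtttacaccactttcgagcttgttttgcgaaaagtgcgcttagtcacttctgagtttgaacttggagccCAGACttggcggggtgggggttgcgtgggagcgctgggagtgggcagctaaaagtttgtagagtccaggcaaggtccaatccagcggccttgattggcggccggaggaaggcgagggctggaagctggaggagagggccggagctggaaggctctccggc

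Tgfbi, chr13:56609336-56609522, plus strand: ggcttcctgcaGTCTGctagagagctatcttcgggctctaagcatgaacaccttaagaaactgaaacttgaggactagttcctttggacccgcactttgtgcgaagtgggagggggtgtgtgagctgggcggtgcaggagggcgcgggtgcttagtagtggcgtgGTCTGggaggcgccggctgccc

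Thbs2, chr17:14694263-14694512, minus strand: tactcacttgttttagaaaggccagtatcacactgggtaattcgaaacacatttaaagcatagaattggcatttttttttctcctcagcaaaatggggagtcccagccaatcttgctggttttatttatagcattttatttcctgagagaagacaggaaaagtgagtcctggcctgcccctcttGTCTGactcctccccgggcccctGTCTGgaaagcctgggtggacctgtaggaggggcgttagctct

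Counted from the RefSeq start, the CAGAC site began at −160 in Tgfbr2, at −239 and −85 in Tgfbi, and at −66 and −43 in Thbs2. The Tgfbi piece ends where the GENCODE gene begins, which lies before the RefSeq start. The Tgfb1 window held no CAGAC site and 5 copies of the GC box GGGCGG (or CCGCCC), a motif found in 32.7% of all windows. None of the 7 windows held the palindrome GTCTAGAC (0.167% of all windows), the AP-1 motif TGANTCA (6.75%) or the TEAD motif GGAATG (12.6%), all searched on both strands, and the CAGAC site does not overlap the palindrome. A match describes letters only and is no evidence of binding.

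The libraries differed in depth and in background before any pathway gene was looked at. Total counts were 2214367 to 4904167 in HFD+MGIG and 14437531 to 16740374 in HFD. Protein-coding genes took 62.5% to 82.7% of counts in HFD+MGIG and 95.0% to 96.1% in HFD. A set of 1599 genes of the olfactory, vomeronasal and taste receptor, keratin-associated and beta-defensin families, which are best known from sensory, epithelial and hair tissue, took 2.94% to 6.43% of counts in HFD+MGIG, against 0.0624% to 0.280% in HFD. HFD+MGIG 2 stood apart, with the lowest depth, the highest share of these silent families, and a correlation of log2 CPM (counts per 1000000 counts of the library) with the HFD libraries of 0.481 to 0.563, against 0.755 to 0.842 for HFD+MGIG 1 and 3. From the silent families each gene was given a background bound in each library, the 90th percentile of their counts per kb times the exon length of the gene. The 15 macrophage markers summed to 7426 to 19083 CPM in HFD+MGIG, with HFD+MGIG 2 the lowest, and to 17268 to 19436 CPM in HFD. In HFD+MGIG 2, Itgam, the gene of a surface protein used in the selection, was under its bound (38.8 CPM, bound 47.3 CPM). Fcgr1 was under its bound there as well (15.8 CPM, bound 24.4 CPM). Both were above their bounds in the other libraries, and every other macrophage marker was above its bound in all 6 libraries. The label of the cells was thus met less fully by the markers in HFD+MGIG 2 than in the other libraries.

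Of the 9 members, 7 were lower and 0 higher in HFD+MGIG by edgeR's quasi-likelihood test with Benjamini-Hochberg adjustment at 0.05 over 23053 genes, beside 17.8% of all genes tested lower and 43% higher. Unadjusted, 8 were lower and 0 higher at p under 0.05, and DESeq2 and limma voom each called 8 lower and 0 higher. Of the 23053 genes, 5157 were lower and 10144 higher unadjusted. DESeq2 called 4630 of them lower and 9837 higher, and limma voom 6873 lower and 10773 higher. The CPM of the groups did not overlap for 8 members, each lower in HFD+MGIG, beside 23.7% of genes lower and 48.9% higher without overlap. The median log2 fold change was −1.24 for the members and 0.38 for all genes tested. The edgeR fit was also read over 2608 protein-coding genes whose mean bound over all 6 libraries was at most 0.25 of their mean CPM. Of these, 43% passed as lower and 2.15% as higher, and their median was −0.91. Their CPM did not overlap between groups for 1774 lower and 73 higher genes. Unadjusted, 1504 of them were lower and 57 higher. DESeq2 called 1669 of them lower and 60 higher, and limma voom 2118 lower and 67 higher. These background-limited genes were therefore also fitted on a scale of their own, where 6.25% were lower and 4.45% higher and the median was 0.03. The limit pools both groups, so a gene can enter through HFD, where it is high. Of the 9 members, 4 entered, but in HFD+MGIG alone only Thbs1 and Tgfbi met the limit, with a bound of 0.205 of the mean CPM for Thbs1 and 0.0633 for Tgfbi, against 0.478 for Ctgf and 0.339 for Tgfbr2. Tests on the narrower scale are therefore given for Thbs1 and Tgfbi, and for Ctgf and Tgfbr2 the value only. Of the 1024 genes that met the limit in HFD+MGIG alone, 4.1% were lower and 8.11% higher on that scale, a selection that leaves out genes that are low there.

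**Figure D1:**
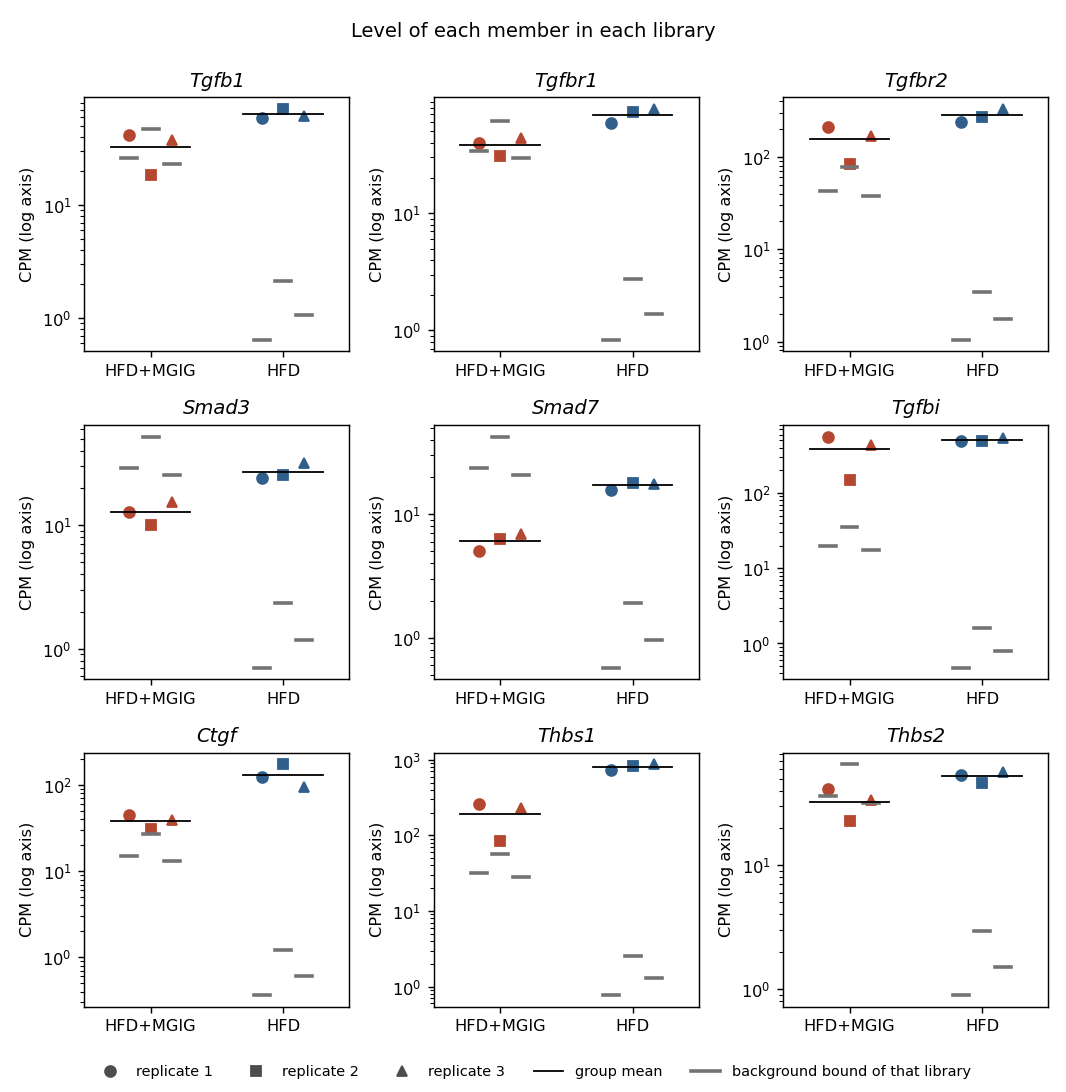
CPM of each member in each library on a log axis, HFD+MGIG in red and HFD in blue, with the replicate number as the marker shape, a black line at the group mean and a grey dash at the background bound of each library. Thbs1 and Ctgf lie above the bound and apart between groups, Smad3 and Smad7 lie under the bound in all 3 HFD+MGIG libraries, and Tgfbi overlaps between groups.

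**Figure D2:**
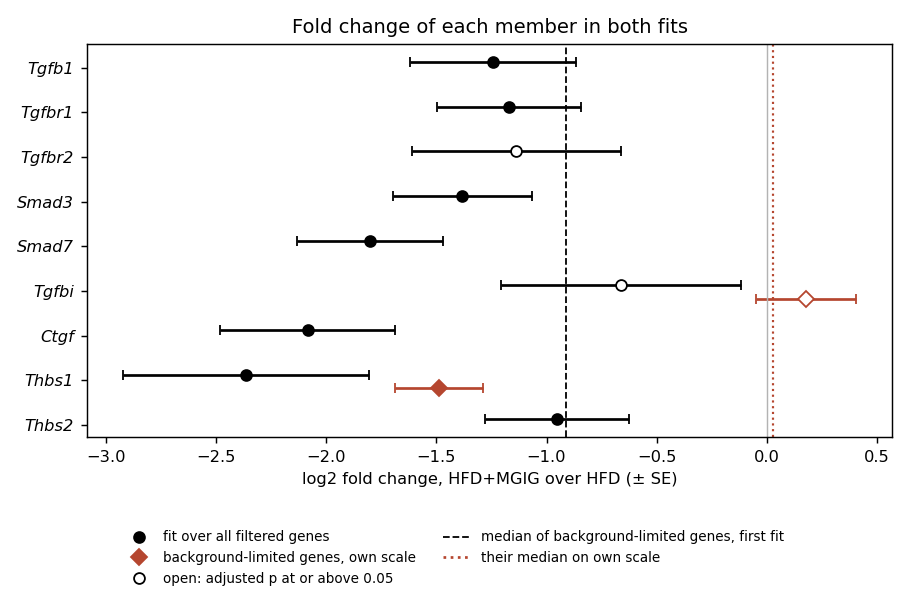
Log2 fold change of each member, HFD+MGIG over HFD, with its standard error, in the fit over all filtered genes (black circles) and, for the 2 members that met the background limit in HFD+MGIG alone, on the scale of the background-limited genes (red diamonds). Thbs1 has a filled symbol on both scales, while Tgfbi has open symbols and lies near the red dotted median on the second.

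Thbs1 had the lowest fold change of the 9 over all genes. It encodes thrombospondin-1, a trimeric secreted glycoprotein that binds CD36 and CD47 and can activate latent TGF-beta (ENSMUSG00000040152, chr2:118111876-118127133 in mm10). Thbs1 had 258, 84.0 and 227 CPM in HFD+MGIG 1, 2 and 3, against 730, 837 and 874 CPM in HFD 1, 2 and 3. The groups lay far apart, and every HFD+MGIG library was above its bound, which averaged 38.9 CPM. HFD+MGIG 2 was the closest, with a bound of 57.1 CPM beside its 84.0 CPM. The HFD+MGIG mean of 190 ± 92.9 CPM was 23.3% of the HFD mean of 814 ± 75.1 CPM (SD, n = 3 each). Thbs1 fell in the fit over all genes (log2 fold change −2.36, SE 0.558, edgeR adjusted p = 0.00303). It also fell on the scale of the background-limited genes (−1.49, SE 0.199, edgeR adjusted p = 0.00697), and kept that call with each library left out in turn, at −1.60 to −1.31 and edgeR adjusted p of 0.000946 to 0.0319. Without HFD+MGIG 2 the log2 fold change was −2.00 over all genes (edgeR adjusted p = 3.89e-05) and −1.31 on the narrower scale. Of its exons, 208 bases (3.43%) are shared with Gm29233 on the opposite strand, which had 0 counts in all 6 libraries.

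Ctgf, the connective tissue growth factor, is a matricellular protein and a classic TGF-beta and YAP target (ENSMUSG00000019997, chr10:24595442-24598683). It had 44.8, 30.7 and 39.4 CPM in HFD+MGIG, against 125, 175 and 94.9 CPM in HFD. The HFD libraries varied among themselves by more than the HFD+MGIG libraries did, and the groups did not overlap. Its mean was 38.3 ± 7.12 CPM in HFD+MGIG, 29.1% of the 132 ± 40.4 CPM in HFD (SD, n = 3 each), with a mean bound of 18.3 CPM in HFD+MGIG. HFD+MGIG 2 was only just above its own bound of 26.9 CPM. Over all genes Ctgf fell by 2.08 on the log2 scale (SE 0.397, edgeR adjusted p = 0.00075). On the narrower scale, which it entered only through HFD, its log2 fold change was −1.09, a value that carries no test here. With the whole background bound subtracted, an alternative chosen after seeing the data, the log2 fold change of Thbs1 was −1.53 (edgeR adjusted p = 0.170), and that fit called 0 of the 2608 genes (unadjusted, 81 lower and 307 higher).

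Tgfbi, a secreted adhesion protein named for its induction by TGF-beta and abundant in macrophages (ENSMUSG00000035493, chr13:56609523-56639562), was not called in either fit. It had 564, 151 and 429 CPM in HFD+MGIG, against 485, 491 and 542 CPM in HFD. HFD+MGIG 1 was the highest of the 6 and HFD+MGIG 2 the lowest, so the groups overlapped. The mean was 381 ± 211 CPM in HFD+MGIG and 506 ± 31.3 CPM in HFD (SD, n = 3 each), well over a mean bound of 24.1 CPM in HFD+MGIG. Its log2 fold change over all genes was −0.66 (SE 0.546, edgeR adjusted p = 0.297). On the narrower scale it was 0.18 (SE 0.226, edgeR adjusted p = 0.643), so its sign depended on the genes that set the scale.

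Tgfbr2, the type II receptor that binds the ligand first (ENSMUSG00000032440, chr9:116084293-116175360), had 209, 84.4 and 170 CPM in HFD+MGIG, against 240, 273 and 331 CPM in HFD. All HFD+MGIG libraries were below all HFD libraries and above their own bound, HFD+MGIG 2 only just. The mean was 154 ± 63.8 CPM in HFD+MGIG and 281 ± 45.6 CPM in HFD (SD, n = 3 each). Over all genes its log2 fold change of −1.14 missed the threshold (SE 0.475, edgeR adjusted p = 0.0537), and on the narrower scale the value was −0.22. It passed over all genes without HFD+MGIG 1 (edgeR adjusted p = 0.0266) or HFD+MGIG 2 (0.00758), with DESeq2's size factors in edgeR (0.0438), with no filter (0.0355), with DESeq2's test (adjusted p = 0.0128) and with limma voom (adjusted p = 0.00189). In the other settings over all genes Tgfbr2 missed the threshold, at an edgeR adjusted p of up to 0.154 with a library left out.

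The other 5 members were lower over all genes but close to the background in HFD+MGIG, and none of them entered the narrower fit. Tgfb1, the ligand (ENSMUSG00000002603, chr7:25687002-25705077), had 41.7, 18.5 and 37.7 CPM in HFD+MGIG, against 59.7, 71.1 and 61.7 CPM in HFD. HFD+MGIG 2 was the lowest and under its bound, and the bound averaged 32.3 CPM in HFD+MGIG beside a mean of 32.6 ± 12.4 CPM (64.2 ± 6.07 CPM in HFD, SD, n = 3 each). Tgfb1 fell by edgeR (log2 fold change −1.24, SE 0.377, adjusted p = 0.0132). Tgfbr1, the type I receptor kinase (ENSMUSG00000007613, chr4:47353222-47414931), had 40.0, 30.7 and 43.8 CPM in HFD+MGIG, against 58.8, 72.6 and 77.8 CPM in HFD. Its HFD+MGIG mean of 38.2 ± 6.75 CPM was under the mean bound of 41.8 CPM, and its HFD mean was 69.7 ± 9.78 CPM (SD, n = 3 each; edgeR log2 fold change −1.17, SE 0.328, adjusted p = 0.00856).

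Smad3, the transcription factor activated by the type I receptor (ENSMUSG00000032402, chr9:63646767-63757994), had 12.8, 9.94 and 15.3 CPM in HFD+MGIG, against 24.2, 25.6 and 31.6 CPM in HFD. Smad7, the inhibitor (ENSMUSG00000025880, chromosome 18), had 5.06, 6.32 and 6.93 CPM in HFD+MGIG, against 15.7, 18.0 and 17.6 CPM in HFD. Both were below their bounds in all 3 HFD+MGIG libraries, with mean bounds of 35.5 CPM for Smad3 and 28.9 CPM for Smad7, and above them in all 3 HFD libraries. Smad3 fell by 1.38 on the log2 scale (SE 0.316, edgeR adjusted p = 0.00247) and Smad7 fell by 1.80 (SE 0.332, edgeR adjusted p = 0.000593). The Smad7 values rested on 21, 14 and 34 counts in HFD+MGIG and 263, 260 and 283 counts in HFD. A count of 14 has an exact Poisson interval of 7.65 to 23.5 at 95% confidence, for counting error only.

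Thbs2, the thrombospondin best known from fibroblasts, which lacks the sequence by which thrombospondin-1 activates TGF-beta (ENSMUSG00000023885, chr17:14665500-14694235), had 41.7, 23.0 and 33.6 CPM in HFD+MGIG, against 54.1, 46.5 and 56.9 CPM in HFD. The groups did not overlap, but the gap between the highest HFD+MGIG and the lowest HFD library was small. Its HFD+MGIG mean of 32.8 ± 9.36 CPM was under the mean bound of 44.8 CPM, and its HFD mean was 52.5 ± 5.36 CPM (SD, n = 3 each). Thbs2 fell over all genes (log2 fold change −0.95, SE 0.328, edgeR adjusted p = 0.0249). It missed the threshold when HFD 3 (edgeR adjusted p = 0.0836) or HFD+MGIG 3 (0.0969) was left out, and when at least 5 CPM in 3 libraries was required (0.0864). The ratio of mean bound to mean CPM over all 6 libraries, which decided entry to the narrower set at 0.25, was 0.125 for Tgfbr2 and 0.112 for Ctgf, both inside. It was 0.347 for Tgfb1 and 0.403 for Tgfbr1, both outside.

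Per kb of exon, so that genes can be compared, Tgfbi and Thbs1 were at one level in HFD, Tgfbi at 134 ± 8.30 and Thbs1 at 134 ± 12.4 CPM per kb, with overlapping libraries. Ctgf (46.0 ± 14.1 CPM per kb) and Tgfbr2 (34.4 ± 5.57) came next in HFD and overlapped each other, followed by Tgfb1 and Tgfbr1, also overlapping, then Thbs2, Smad3 and Smad7, each apart from the one above it. In HFD+MGIG Tgfbi led at 101 ± 55.8 CPM per kb and Thbs1 followed at 31.2 ± 15.3, with Tgfbi above Thbs1 in every library although their ranges overlapped. Further down the HFD+MGIG order, Ctgf stood apart from Tgfb1, Thbs2 from Smad3, and Smad3 from Smad7, and the other neighbours overlapped. The HFD+MGIG means of Tgfbr1, Thbs2, Smad3 and Smad7 lay under their mean bounds, and that of Tgfb1 close to its bound. The order of these genes in HFD+MGIG was thus not separated from background.

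Ratios within a library do not depend on how libraries are scaled. The ratio of Thbs1 to Thbs2 per kb was 7.15, 4.21 and 7.78 in HFD+MGIG, against 15.5, 20.7 and 17.7 in HFD. Every HFD+MGIG library was lower, with means of 6.38 ± 1.91 in HFD+MGIG and 18.0 ± 2.60 in HFD (SD, n = 3 each). With the median background subtracted, an alternative chosen after seeing the data, the means were 10.6 ± 1.92 in HFD+MGIG and 18.1 ± 2.74 in HFD, a narrower gap but still without overlap. The ratio of Thbs1 to Tgfb1 per kb was 5.14, 3.77 and 4.99 in HFD+MGIG, against 10.2, 9.78 and 11.8 in HFD, again lower in every HFD+MGIG library. After the same subtraction it was 5.95, 9.13 and 5.87 in HFD+MGIG, against 10.2, 9.83 and 11.8 in HFD, so that HFD+MGIG 2 came close to the lowest HFD library. Without subtraction, each of these 2 ratios gave p = 0.1 in the two-sided exact permutation test, the smallest that 3 against 3 allows, and 0.173 after Benjamini-Hochberg adjustment over 19 ratios. The groups overlapped for Tgfbr1 to Tgfbr2 (0.340 ± 0.109 in HFD+MGIG and 0.312 ± 0.0197 in HFD), Smad7 to Smad3, Tgfbi to Tgfb1 and Ctgf to Tgfb1. With the median background subtracted, Tgfbr1 to Tgfbr2 no longer overlapped, at 0.255 ± 0.0497 in HFD+MGIG and 0.311 ± 0.0190 in HFD, and neither did Tgfbi to Tgfb1, at 23.2 ± 6.06 in HFD+MGIG and 10.6 ± 1.25 in HFD. Ctgf to Tgfb1, at 2.22 ± 0.610 in HFD+MGIG and 3.58 ± 0.822 in HFD before subtraction, was 3.59 ± 2.67 in HFD+MGIG and 3.59 ± 0.829 in HFD after it.

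Of 63 other pathway genes, 44 were lower and 3 higher over all genes (17.8% and 43% of all genes tested), with a median log2 fold change of −1.14. Leaving out HFD 3 or HFD+MGIG 3 brought the lower genes to 29 in either case. The lists of receptors, response genes and thrombospondins had 0 higher genes by the adjusted and unadjusted edgeR test, by DESeq2 and by limma voom. In HFD+MGIG the mean of 37 of the 63 was at or below the mean bound. The narrower fit held 21 of the 63, and 11 of these met the limit in HFD+MGIG alone. Of the 11, 3 were lower and 0 higher there, beside 4.1% lower and 8.11% higher of the 1024 such genes. They were the response genes Cyr61, Timp3 and Bhlhe40, described below and named after their values were seen.

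Among 14 genes of ligands and latency, 8 were lower and 2 higher over all genes. Tgfb3, a ligand, had 14.0, 10.8 and 17.9 CPM in HFD+MGIG, against 44.7, 37.8 and 43.7 CPM in HFD (log2 fold change −1.83, edgeR adjusted p = 0.000349), its mean of 14.3 CPM in HFD+MGIG being under the bound of 21.7 CPM. The 2 that rose were Itgb8 and Itgb6, the integrin chains that pair with the alpha v chain to release latent TGF-beta. Itgb8 had 36.4, 43.8 and 21.0 CPM in HFD+MGIG, against 1.19, 2.70 and 3.35 CPM in HFD (log2 fold change 3.44, edgeR adjusted p = 0.000105). Itgb6 had 11.1, 19.0 and 11.8 CPM in HFD+MGIG, against 0.239, 1.18 and 0.870 CPM in HFD (3.80, edgeR adjusted p = 0.000282). Both were under their mean HFD+MGIG bounds, 70.8 CPM for Itgb8 and 45.5 CPM for Itgb6, so their HFD+MGIG levels were within those of silent genes of the same length.

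Of 10 receptors and co-receptors, 7 were lower and 0 higher over all genes. Eng, the co-receptor endoglin, best known from endothelium, had 45.3, 17.2 and 50.6 CPM in HFD+MGIG, against 144, 160 and 168 CPM in HFD. Eng fell over all genes (log2 fold change −2.32, edgeR adjusted p = 0.00103), and its mean of 37.7 CPM in HFD+MGIG stood beside a bound of 25.9 CPM. Its partner Acvrl1, the endothelial type I receptor, had 45.3, 15.8 and 34.7 CPM in HFD+MGIG, against 81.7, 76.1 and 80.8 CPM in HFD (−1.57, edgeR adjusted p = 0.00578). The Acvrl1 mean of 31.9 CPM in HFD+MGIG stood beside a bound of 27.3 CPM. In HFD+MGIG 2 both Eng and Acvrl1 were under the bounds of that library, 38.1 CPM for Eng and 40.1 CPM for Acvrl1. Tgfbr3, the co-receptor betaglycan, had 49.6, 19.4 and 45.5 CPM in HFD+MGIG, against 105, 94.3 and 107 CPM in HFD (−1.68, edgeR adjusted p = 0.00404), its mean of 38.2 CPM in HFD+MGIG being under the bound of 41.9 CPM.

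Of 16 SMADs and regulators, 12 were lower and 1 higher over all genes. Pmepa1, which sequesters receptor-activated SMADs, had 8.92, 9.48 and 10.2 CPM in HFD+MGIG, against 21.2, 18.6 and 19.8 CPM in HFD (log2 fold change −1.36, edgeR adjusted p = 0.00169). Smad6, an inhibitor chiefly of the BMP branch, had 6.27, 6.32 and 7.75 CPM in HFD+MGIG, against 15.9, 13.8 and 15.0 CPM in HFD (−1.43, edgeR adjusted p = 0.00273). Both were under their bounds in all 3 HFD+MGIG libraries, with mean bounds of 31.4 CPM for Pmepa1 and 20.5 CPM for Smad6. Ski, a nuclear co-repressor of SMADs, had 50.6, 19.4 and 48.5 CPM in HFD+MGIG, against 102, 111 and 124 CPM in HFD. Ski fell over all genes (−1.77, edgeR adjusted p = 0.00368), with a mean of 39.5 CPM in HFD+MGIG beside a bound of 35.6 CPM. In HFD+MGIG 2 Ski was under the bound of that library, 52.3 CPM. The gene that rose was Smad9, named here after its values were seen, with 5.06, 9.03 and 6.53 CPM in HFD+MGIG and 0.358, 0.762 and 0.0621 CPM in HFD (log2 fold change 3.73, edgeR adjusted p = 0.00139). It was under its bound in all 6 libraries, the bound averaging 34.4 CPM in HFD+MGIG and 1.36 CPM in HFD, so its values lay within those of silent genes of the same length.

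Of 16 response genes, 13 were lower and 0 higher over all genes. Cyr61, a matricellular relative of CTGF, had 276, 194 and 339 CPM in HFD+MGIG, against 844, 791 and 679 CPM in HFD, and its log2 fold change was −1.80 over all genes (edgeR adjusted p = 0.00560) and −0.81 on the narrower scale (edgeR adjusted p = 0.0204). The second call was lost without HFD 1 (edgeR adjusted p = 0.0773), HFD 2 (0.0818) or HFD+MGIG 1 (0.0551). Timp3, an inhibitor of matrix proteases, had 409, 207 and 444 CPM in HFD+MGIG, against 859, 937 and 868 CPM in HFD, and was at −1.61 over all genes (edgeR adjusted p = 0.0155) and −0.67 on the narrower scale (edgeR adjusted p = 0.0232). Bhlhe40, a transcriptional repressor, had 170, 115 and 169 CPM in HFD+MGIG, against 362, 409 and 364 CPM in HFD, and was at −1.62 over all genes (edgeR adjusted p = 0.00653) and −0.61 on the narrower scale (edgeR adjusted p = 0.0279). For all 3 the groups were apart and each library was above its bound. The narrower-scale call of Timp3 held only when HFD+MGIG 2 or HFD+MGIG 3 was the library left out (edgeR adjusted p = 0.0622 to 0.108 in the other cases), and its call over all genes was lost without HFD 3 (0.0505). That of Bhlhe40 on the narrower scale held only when HFD+MGIG 2 was left out (edgeR adjusted p = 0.0755 to 0.131 in the other cases). With the median background subtracted Cyr61 (edgeR adjusted p = 0.0551) and Bhlhe40 (0.0609) missed the threshold too. Col1a1, the chain of fibrillar collagen I, had 71.6, 25.3 and 85.8 CPM in HFD+MGIG, against 363, 259 and 303 CPM in HFD. It fell over all genes (log2 fold change −2.59, edgeR adjusted p = 0.00108), and its mean of 60.9 CPM in HFD+MGIG stood beside a bound of 42.0 CPM. Postn, the matricellular protein periostin, had 100, 46.5 and 103 CPM in HFD+MGIG, against 298, 295 and 236 CPM in HFD, and fell as well (−2.00, edgeR adjusted p = 0.00261), with a bound of 55.7 CPM beside its mean of 83.2 CPM in HFD+MGIG. In HFD+MGIG 2 both Col1a1 and Postn were under the bounds of that library, 61.7 CPM for Col1a1 and 81.8 CPM for Postn. Tgfb1i1, the focal adhesion protein Hic-5, had 9.16, 14.0 and 14.3 CPM in HFD+MGIG, against 34.0, 28.3 and 23.7 CPM in HFD (−1.52 over all genes, edgeR adjusted p = 0.000802), under its bound in all 3 HFD+MGIG libraries. Of 7 further thrombospondins and thrombospondin receptors, 4 were lower and 0 higher over all genes. Itga3, an integrin chain that binds thrombospondin-1 and laminin, had 5.54, 4.52 and 7.54 CPM in HFD+MGIG, against 23.7, 29.2 and 19.1 CPM in HFD (−2.30, edgeR adjusted p = 0.000255). Thbs3 had 7.23, 3.61 and 5.30 CPM in HFD+MGIG, against 13.3, 8.52 and 8.39 CPM in HFD (−1.14, edgeR adjusted p = 0.0366), and dropped out of the calls when HFD 1, HFD 3 or HFD+MGIG 3 was left out. Itga3 and Thbs3 were likewise under their bounds in all 3 HFD+MGIG libraries.

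**Figure D3:**
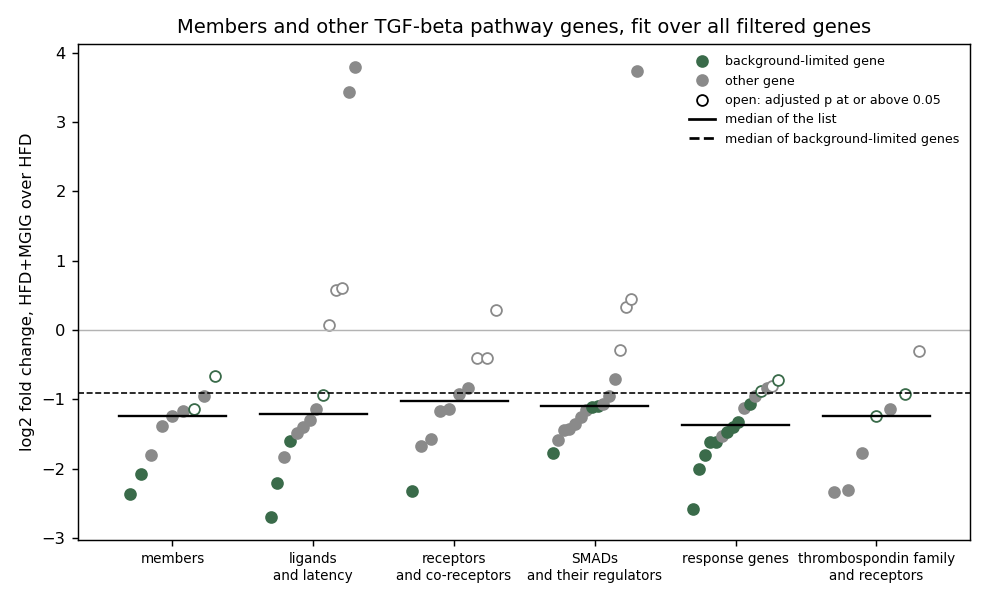
Log2 fold change, HFD+MGIG over HFD, of the 9 members and of the 63 other pathway genes by role, 1 point per gene in the fit over all filtered genes, with green for background-limited genes, open symbols for an adjusted p at or above 0.05, a bar at the median of each list and a dashed line at −0.91, the median of all background-limited genes. Most points lie between −3 and 0, and Itgb6, Smad9 and Itgb8 stand above 3.

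Several of these genes are known to be made also by endothelial cells and fibroblasts, and the summed markers of each were lower in HFD+MGIG. All 13 endothelial markers were lower over all genes, with sums of 582 to 1071 CPM in HFD+MGIG and 2552 to 2986 CPM in HFD. On the narrower scale 2 met the limit in HFD+MGIG alone, and both were lower. Of 12 fibroblast markers, which include the response gene Col1a1, 7 were lower, with sums of 1403 to 2076 CPM in HFD+MGIG and 2705 to 4182 CPM in HFD. The one fibroblast marker that met the limit in HFD+MGIG alone, Dcn, averaged 994 CPM in HFD+MGIG and 802 CPM in HFD and was not called on the narrower scale (1.08, edgeR adjusted p = 0.0778). Among 10 markers of pericytes and smooth muscle, which include the response genes Acta2 and Tagln, 8 were lower (487 to 876 CPM in HFD+MGIG, 1377 to 2069 CPM in HFD), and of 10 adipocyte markers 9 were lower (464 to 781 CPM in HFD+MGIG, 1106 to 2222 CPM in HFD). Of those that met the limit in HFD+MGIG alone, 0 of 2 pericyte and smooth muscle markers and 1 of 4 adipocyte markers were lower on the narrower scale. Of the 15 macrophage markers 0 were called by edgeR on either scale. At an unadjusted p under 0.05, 2 were lower and 0 higher over all genes, and 0 lower and 5 higher among the 14 on the narrower scale, while DESeq2 called 3 lower and limma voom 5. Their median log2 fold change was −0.62 over all genes and 0.33 on the narrower scale. The 8 markers of megakaryocytes and platelets, which are rich in thrombospondin-1, summed to 12.8 to 27.1 CPM in HFD+MGIG and 15.1 to 18.1 CPM in HFD. The HFD+MGIG means of all 8 were at or below their mean bounds, so that sum lay within background. Of the 4 tested over all genes, 1 was lower and 1 higher. The 8 T and B lymphocyte markers summed to 44.8 to 173 CPM in HFD+MGIG and 23.9 to 57.8 CPM in HFD. Of these, 6 had HFD+MGIG means at or below their mean bounds, and 0 were lower and 2 higher over all genes. No gene of these lists was at 0 in all 6 libraries. The part of other cell types and of the background in the results was not tested, and in bulk RNA fewer cells of a type and less RNA per cell cannot be told apart.

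Set against these sums within each library, the members differed among themselves. Thbs1 per 1000 CPM of macrophage markers was 13.5, 11.3 and 13.7 in HFD+MGIG, against 42.3, 47.2 and 45.0 in HFD. The libraries of each group, HFD+MGIG 2 included, lay close together, with means of 12.9 ± 1.34 in HFD+MGIG and 44.8 ± 2.47 in HFD (SD, n = 3 each). Tgfbi on the same measure was 25.3 ± 4.65 in HFD+MGIG and 27.9 ± 0.208 in HFD, with overlap, while Tgfbr2 was lower in every HFD+MGIG library, at 10.9 ± 0.559 in HFD+MGIG and 15.4 ± 1.54 in HFD. Ctgf per 1000 CPM of macrophage markers was 2.95 ± 1.02 in HFD+MGIG and 7.34 ± 2.49 in HFD, without overlap. Per 1000 CPM of endothelial markers, Ctgf was 44.6 ± 8.01 in HFD+MGIG and 46.8 ± 10.9 in HFD, with overlap (two-sided exact permutation p = 0.7), and Thbs1 was 204 ± 55.8 in HFD+MGIG and 294 ± 43.5 in HFD, without overlap. In HFD+MGIG the means of 6 of the 13 endothelial markers were at or below their mean bounds. Ctgf in HFD+MGIG 2 was at 30.7 CPM, beside a bound of 26.9 CPM. No background was subtracted from the ratios to markers. Per 1000 CPM of fibroblast markers both Thbs1 (109 ± 43.1 in HFD+MGIG, 262 ± 75.9 in HFD) and Ctgf (22.7 ± 1.63 in HFD+MGIG, 42.5 ± 19.3 in HFD) were lower in every HFD+MGIG library. That sum mixed genes whose mean CPM went in different directions. Its largest gene was Dcn in HFD+MGIG (994 CPM, 802 CPM in HFD) and Col3a1 in HFD (1236 CPM, 221 CPM in HFD+MGIG). Measures without overlap again had the smallest exact permutation p that the design allows, 0.1.

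**Figure D4:**
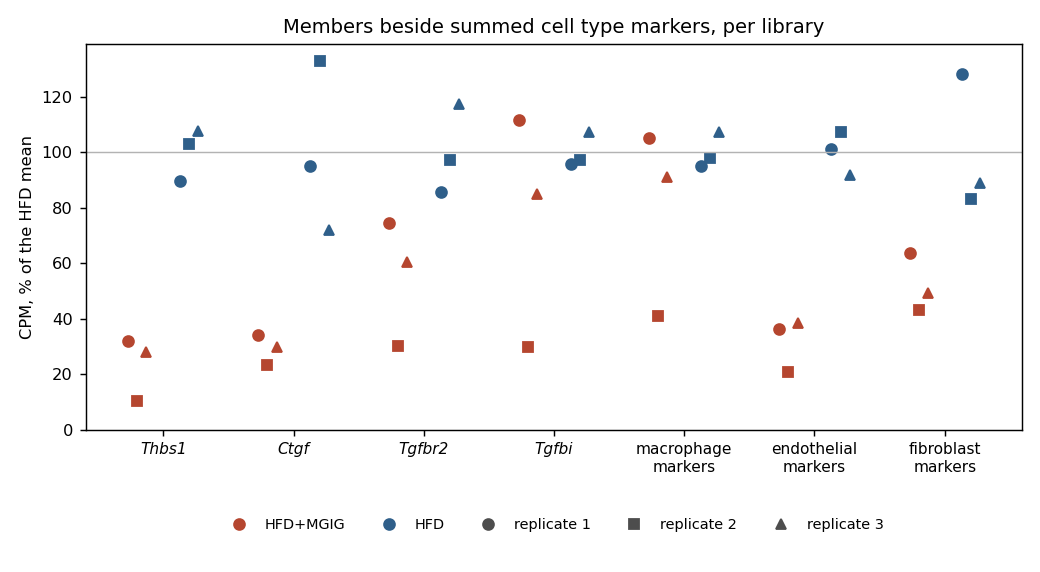
CPM of the 4 background-limited members and summed CPM of the macrophage, endothelial and fibroblast markers in each library, as a percentage of the HFD mean, HFD+MGIG in red and HFD in blue, with the replicate number as the marker shape. Thbs1, Ctgf and the endothelial and fibroblast sums are apart between groups, while Tgfbi and the macrophage sum overlap.

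The genes of the background-limited set whose level followed each member most closely over the 6 libraries were found by the root mean square difference of centred log2 CPM among 2607 genes. For Thbs1 these were Eng (0.106), the secreted protease Adamts1 (0.114) and the myosin Myo1c (0.127). For Ctgf they were the proteoglycan Bgn (0.169), the tropomyosin Tpm1 (0.215) and the granulocyte growth factor Csf3 (0.218). For Tgfbi they were the phospholipid transfer protein Pltp (0.0551), Sqor (0.0629) and Rab3il1 (0.0636), and for Tgfbr2 they were Arhgef6 (0.0632), Arhgap1 (0.0637) and Rp2 (0.0651). These are descriptions over 6 points, which share 2 groups and the low depth of HFD+MGIG 2. The limit that defined the set pooled both groups, and Eng, like the members Ctgf and Tgfbr2, entered it only through HFD.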

How the data were processed

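Expression was measured by RNA sequencing in 6 libraries, made from 10 ng of total RNA with a SMART-Seq v4 kit, which amplifies cDNA, per the labels' protocols. Those protocols speak of RNA from tissue, while the design text names sorted macrophages. The values the authors deposited are estimated counts, some of them fractional. The submitters' processing notes name fastp, HISAT2, StringTie and the build mm10. No version, counting program or strand setting is stated there. Counts were rounded. Annotation (symbols, exons, coordinates) was taken from GENCODE M21, which held 51933 of the 57180 IDs. 0 columns were left unused.

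Tests used edgeR 4.0.16 in R 4.3.3 (robust quasi-likelihood fit, TMM factors, filterByExpr, group as the only term) and Benjamini-Hochberg adjustment at 0.05. SEs were derived from the fold change and its F statistic. CPM used library totals, while fold changes used TMM factors. The scripts were tested on simulated counts. Alternatives were DESeq2 1.42.0, limma 3.58.1 voom with sample weights, other scalings and filters, the replicate number as a block, background subtraction and each library left out. A count of 1 was worth 0.204 to 0.452 CPM in HFD+MGIG and 0.0597 to 0.0693 CPM in HFD. The members, the gene lists, the background measures and the naming rule were chosen with earlier results of these data known. That rule named all members and, in each list, up to 3 genes of smallest p past 0.05 whose higher group had at least 10 CPM; markers are given as lists. Smad9, Cyr61, Timp3, Bhlhe40, Dcn and Col3a1 were named after their values were seen, and whether a gene met the background limit in HFD+MGIG alone was examined after seeing the data. For each background-limited member (at least 2 exon blocks, silent families excluded) it took the 3 nearest genes, using log2 CPM (prior count 2).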

Additional observations from a re-analysis of the deposited data

How the results depend on the processing

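Over all genes, 7 members were lower in HFD+MGIG, and 6 to 8 under the other scalings, filters and tools and with each library left out, with 0 higher throughout. Deviations of same-numbered libraries correlated at 0.0782, 0.285 and 0.0706, beside −0.239 to 0.189 for libraries of different numbers. These few values do not settle whether the replicate numbers pair the libraries. With the replicate block 7 members and 40 other pathway genes were lower. The narrower scale held 4 of the 9 members, 2 of the 7 lower ones, and 21 of the 63 other genes, 16 of the 44 lower and none of the 3 higher ones, so its counts set against those over all genes mix a smaller list with another scale, and 7 of the 10 other genes lower there entered only through HFD. There 2 members passed as lower, beside 6.25% of the 2608 genes. They were Thbs1 and Ctgf, and Ctgf entered only through HFD and carries no test here. Of the members within the limit in HFD+MGIG alone, 1 was lower, beside 4.1% of the 1024 such genes. With Ctgf included, the count was 2 with the median background subtracted and 0 with the full bound subtracted (unadjusted, 2 lower and 1 higher). It was 1 to 2 with each library left out. The 44 other pathway genes that were lower became 26 with at least 5 CPM in 3 libraries, 29 to 47 with each library left out. On the narrower scale 10 were lower (5 to 10 with each library left out), 7 with the median background and 0 with the full bound subtracted (unadjusted, 2 lower and 0 higher). The 3 higher ones became 5 with at least 5 CPM. The narrower scale gave 0 higher in each of its versions, at most 1 unadjusted. The sign of Tgfbi reversed on the narrower scale (0.18), with the median background (0.27) or the full bound subtracted (0.50), and there without HFD 1 (0.13), HFD 2 (0.15), HFD 3 (0.22), HFD+MGIG 2 (0.41) or HFD+MGIG 3 (0.12); its cause was not tested. The median log2 fold change of the filtered genes was 0.38 with TMM, 0.54 with DESeq2's size factors, 0.74 with library totals and −0.08 with at least 5 CPM. Library totals called 2426 genes lower and 10429 higher, beside 4109 and 9902 with TMM. Without HFD 2, HFD 3 or HFD+MGIG 3, 2549, 2130 and 2126 genes were lower over all genes, and on the narrower scale 163 became 44, 55, 92 and 88 without HFD 1, HFD 2, HFD 3 and HFD+MGIG 1, while 116 higher ones became 3, 19 and 17 without HFD 1, HFD 2 and HFD 3 and 71 without HFD+MGIG 3. Background limits Smad3, Smad7, Tgfbr1 and Thbs2, whose mean HFD+MGIG levels lie below the bound.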
